A study of Mus musculus with 30 samples.

Results

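Cohesin is a ring-shaped protein complex that holds sister chromatids together and folds chromosomes into loops. SMC1 and SMC3 are its long coiled-coil arms with ATPase heads, and RAD21 is the kleisin that closes the ring between these heads. On mammalian chromosomes cohesin is usually mapped as narrow peaks at sites bound by the zinc-finger protein CTCF, where loop extrusion is thought to halt, and part of it is found along active promoters and enhancers. The regions described here are the wide ones that arise when the calls of several antibodies and cell lines are joined.

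The 6 cohesin lists of the study, 1 for each of the antibodies against SMC1, RAD21 and SMC3 in each of 2 NIH3T3 lines, were merged on chromosomes 1 to 19, and regions that overlapped or were adjacent were joined. The regions were chosen by the number of lists and by width: a merged region was kept when all 6 lists had a region in it and its width was 1000 bp or more. This rule kept 3653 of 146915 merged regions, or 2.49%. Among the 50858 merged regions called in all 6 lists the broad ones were 7.18% (exact 95% binomial interval 6.96 to 7.41), and they are set beside the other 47205, called narrower regions below. Width and presence in the lists chose the broad regions, so these are given as a description.

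NIH3T3 is an immortalized mouse embryonic fibroblast line. One line (EV) stably carried an empty vector, a CpG-free plasmid from which beta-galactosidase is expressed. The other was clone 2 of cells that stably express BORIS, also called CTCFL, the germline paralogue of CTCF that shares its zinc-finger type of DNA binding, from a CpG-free plasmid. No genotype was given for either line, and a clone can differ from other cells in more than its transgene. Lists of Snf2h, the ATPase of ISWI chromatin remodellers, came from the mouse B lymphoma line CH12, either wild type or with a homozygous Cas9 deletion of zinc fingers 9 to 11 of CTCF (mutant). The series held 30 samples, and the lists of 8 of them were used here. Each line had 1 library per antibody, so no difference between lines has a replicate check and no p-value is given. The intervals given below reflect counting error alone, and neighbouring regions may share a signal.

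The cohesin lists held from 82235 regions (BORIS-line RAD21) up to 107735 (BORIS-line SMC3) over all chromosomes. Their depth was not stated. The lowest background rate at any summit, recovered from the deposited values, lay between 0.908 and 1.03 fragments over a position in the 6 lists. All 3 antibodies target subunits of one complex, and no defining marker of the cell type can be read from such lists. Coordinates are those of the lists, counted from 1, and mm9 is the only mouse build that the submitters' processing notes name. Genes, promoters and sequences at these positions were not analysed here.

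The broad regions were mostly a little over the threshold. Their widths ran from 1000 to 13672 bp with a median of 1250 bp, and 2676 of them were under 1500 bp. There were 358 of at least 2000 bp and 12 of at least 5000 bp. The narrower regions had a median width of 438 bp. Together the broad regions covered 5.18 Mb, which was 18.8% of the length of all regions called in all lists. Of 3817 merged regions of at least 1000 bp, 3653 were in all 6 lists, 110 in 5 lists and 54 in 4 or fewer. Joining more lists can widen a merged region, so width and number of lists are not independent.

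A broad region was seldom 1 wide call in every list. It was assembled from a median of 10 deposited regions (6 to 67), against 6 in the narrower regions, where 6 is the lowest number possible. In 351 broad regions (9.61%) each list had exactly 1 region, compared with 85.7% of the narrower regions. A single deposited region of at least 1000 bp was present in at least 1 list in 2403 broad regions (65.8%) and in every list in 224 (6.13%). The remaining 1250 (34.2%) reached 1000 bp only by joining shorter regions of different lists.

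The lists differed in how much of the broad regions they called. A region of at least 1000 bp was deposited inside 37.2% of them with SMC1, 18.1% with RAD21 and 34.4% with SMC3 in EV cells, and inside 23.3%, 13.1% and 36.1% in BORIS cells. RAD21 was thus the lowest in both lines. In EV cells SMC1 calls covered 80.9% of the length of the broad regions, SMC3 calls 78.7% and RAD21 calls 66.1%. In BORIS cells these shares were 73.5%, 79.9% and 60.3%. The outer boundaries followed the same order, since RAD21 set 9.73% of the boundaries in EV cells and 6.90% in BORIS cells, against 23.5% for SMC1 in EV cells and 23.9% for SMC3 in BORIS cells. RAD21 also had the shortest lists, and the part of list length in these shares was not tested.

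**Figure D1:**
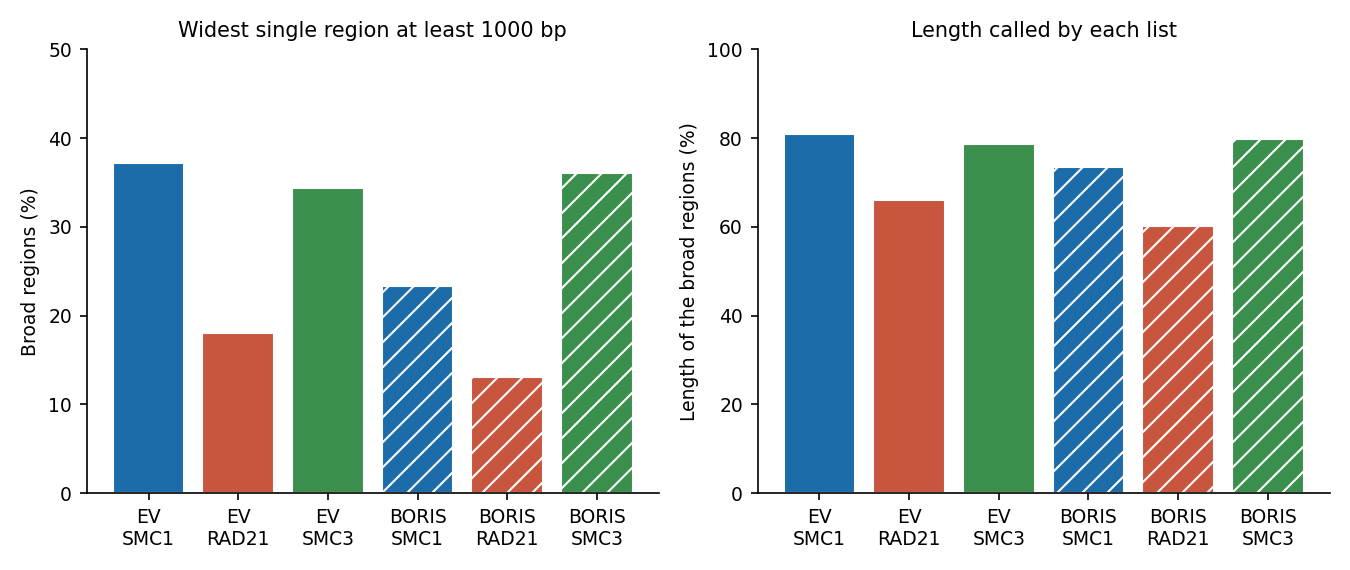
Share of the 3653 broad regions that hold a single deposited region of at least 1000 bp (left, %) and share of their summed length called by each list (right, %); plain bars are EV cells, hatched bars BORIS cells, and there is 1 library per bar. RAD21 (red) is lowest in both lines, at 18.1% and 13.1% on the left and 66.1% and 60.3% on the right.

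Only part of each broad region was called by all lists. The stretch covered by all 6 had a median of 558 bp (quartiles 357 and 784 bp), which was 43.1% of the width at the median. It reached 1000 bp in 444 broad regions (12.2%) and was absent in 76, where the lists were linked in a chain with no base in common. Summed over the broad regions, 44.0% of the length was covered by 6 lists, 13.8% by 5, and 10.6% by 1 list alone.

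Relative to width, the strongest summit lay nearer to an edge in broad than in narrower regions. In broad regions its distance to the nearer edge was 30.3% of the width at the median, compared with 42.5% in narrower ones. It fell closer to an edge than to the centre in 1322 broad regions (36.2%) against 4.25% of the narrower ones. In most regions of either kind it thus lay closer to the centre. At 500 bp from that summit, averaged over both sides, 47.8% of the broad regions were still called by SMC1, 35.3% by RAD21 and 45.5% by SMC3 in EV cells. In BORIS cells the shares at this distance were 42.3%, 31.0% and 46.9%. The highest of the 6 shares in narrower regions was 2.18%, which their width below 1000 bp limits by construction.

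**Figure D2:**
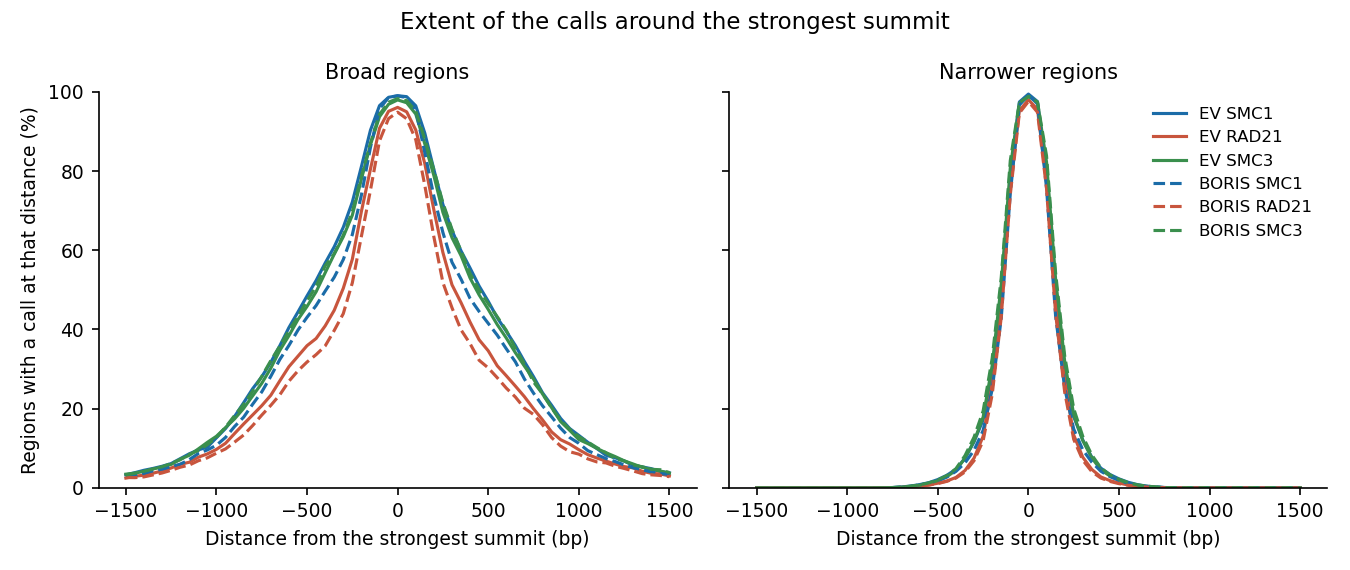
Share of regions (%) with a call by each list against the distance in bp from the strongest summit, in broad regions (left) and narrower regions (right); solid lines are EV cells and dashed lines BORIS cells. In broad regions the calls thin out over about 1 kb, and both RAD21 lines lie below those of SMC1 and SMC3, with 35.3% and 31.0% at 500 bp.

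The lists give 1 summit for each deposited region, so the summits locate separate calls and do not count every maximum of read density. Summits at most 200 bp apart were joined into clusters, and a cluster with a summit of every list was taken as a place on which all 6 lists met. In 2735 broad regions (74.9%, interval 73.4 to 76.3) there was 1 such cluster. In 244 (6.68%, 5.89 to 7.54) there were at least 2, and 9 of these held 3. In 674 (18.5%, 17.2 to 19.7) there was none. These counts moved with the distance allowed: at 100 bp 1135 had none and 148 at least 2, and at 300 bp 354 had none and 274 at least 2. Of the narrower regions 98.2% had 1 cluster, 0.0869% had at least 2 and 1.71% had none. Several such clusters need several regions in every list, which few narrower regions have, so this contrast is largely fixed by how the calls were split.

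These 3 kinds of broad region also differed in strength, given as the percentile of a region's strongest −log10 p among the 50858 regions called in all lists. Broad regions with 1 cluster had a median RAD21 percentile of 52.5 in EV cells and 53.6 in BORIS cells. Those with no cluster were lower, at 33.9 and 35.4. Those with at least 2 clusters lay between, at 47.1 and 47.6. Where a region held several clusters, neighbouring ones were a median of 805 bp apart (quartiles 643 and 1075 bp, 253 pairs), which is a spacing between separate summits and not a width of one.

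The region with the most clusters and the greatest width among those was chr17:29627541-29630255, of 2715 bp. Each of the 6 lists had 3 regions in it, and the strongest summits of the 6 lists lay within 19 bp. The deposited folds at the strongest summit, which are ratios over a local background, were 35.8 (SMC1), 53.0 (RAD21) and 40.0 (SMC3) in EV cells. In BORIS cells they were 23.4, 36.3 and 29.0. All 6 percentiles were high, from 89.99 (SMC3 in BORIS cells) to 96.4 (RAD21 in EV cells).

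The next in this order were weaker. At chr15:76034219-76036872 the RAD21 fold was 16.4 in EV and 8.48 in BORIS cells, and the strongest summits of the lists lay up to 1153 bp apart, so that different lists had their maximum in different clusters. At chr3:145314258-145316876 the folds ran from 5.28 (RAD21 in EV cells) to 6.88 (SMC1 in EV cells) and the percentiles from 15.1 to 41.0. Several clusters in a region therefore went with high strength in the first example and with low strength in the last.

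**Figure D3:**
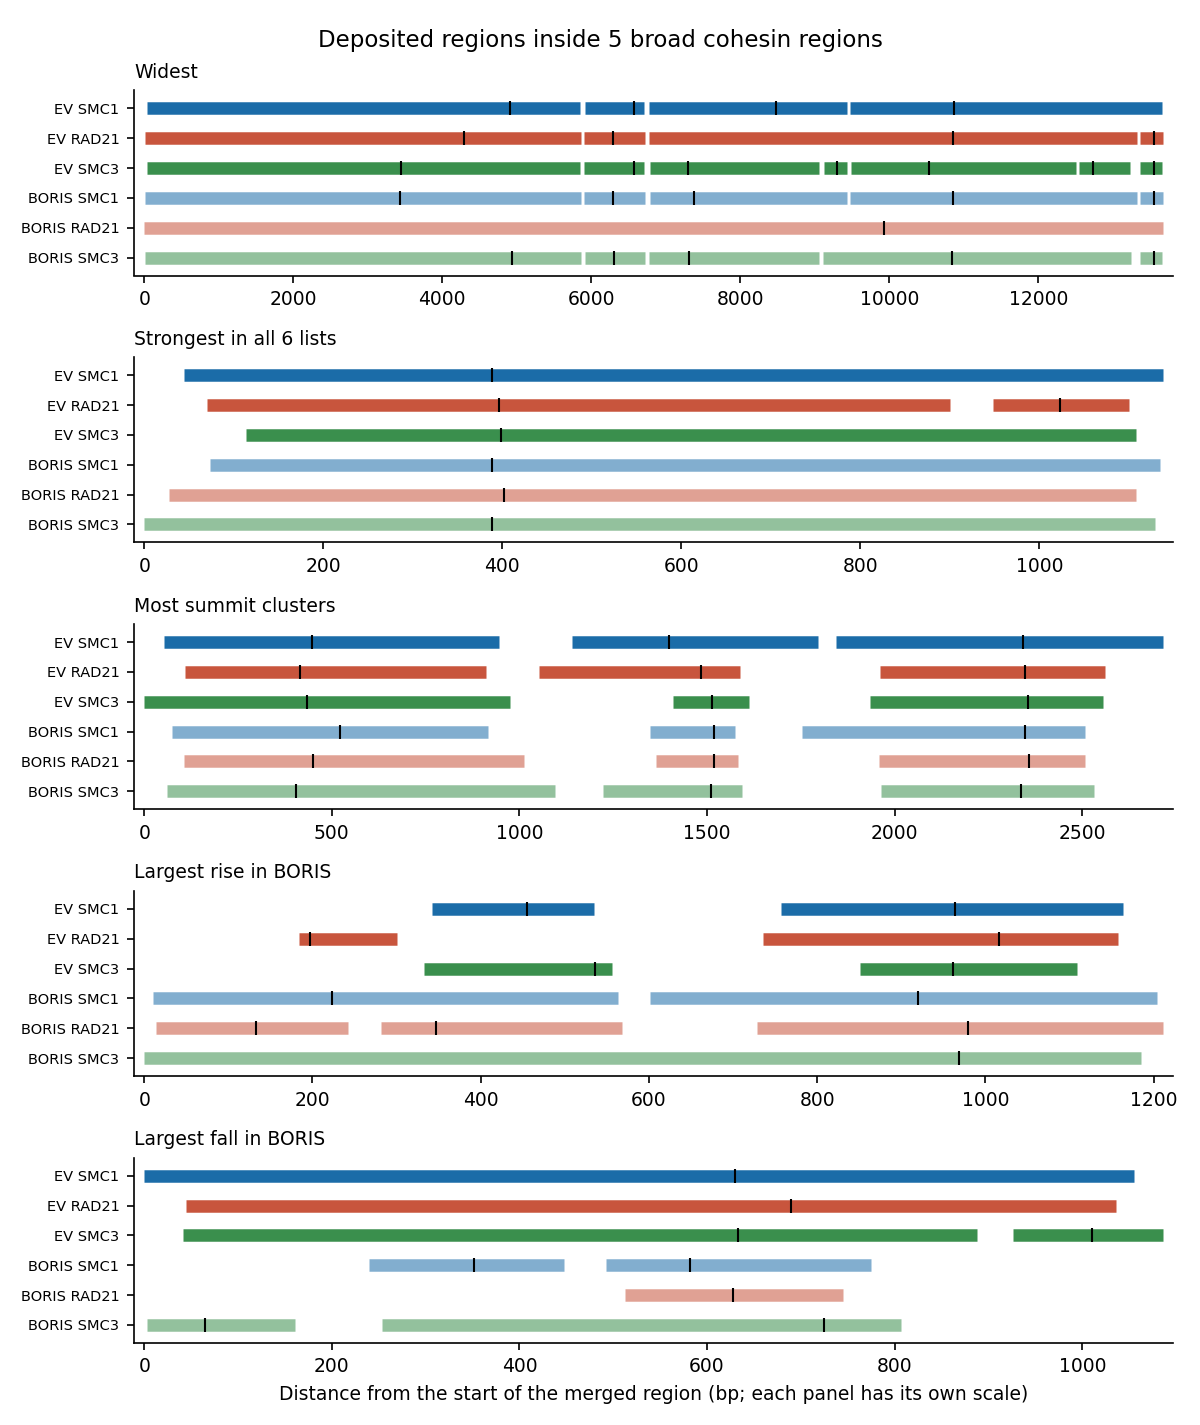
Deposited regions (bars) and their summits (black ticks) of each list inside 5 broad regions, against the distance in bp from the start of the merged region, with a scale of its own in each panel; paler bars are BORIS cells. The widest region is called nearly end to end by all lists, the third panel shows 3 separate clusters, and the lower 2 panels show wider calls in BORIS cells (chromosome 4) and in EV cells (chromosome 14).

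Broad regions were of middling strength, and SMC1 ranked them highest. Their median percentile was 56.2 (SMC1), 47.7 (RAD21) and 46.7 (SMC3) in EV cells. In BORIS cells it was 60.6 (SMC1), 48.3 (RAD21) and 52.2 (SMC3). The narrower regions had medians of 49.0 to 50.2 in the 6 lists. Each list spanned most of the range of strengths, and the lowest and highest percentile of a broad region were 0.0433 and 99.98 for SMC1 in EV cells.

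Strength did not grow steadily with width. Regions from 500 up to 750 bp wide had medians of 70.2 to 71.6 in the 6 lists. For RAD21 in EV cells the median was 46.4 from 750 up to 1000 bp and 44.4 from 1000 up to 1250 bp. It was higher again, at 58.5, in the 358 regions of at least 2000 bp. SMC1 in EV cells followed the same course at a higher level, with 59.1, 55.6 and 65.2.

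**Figure D4:**
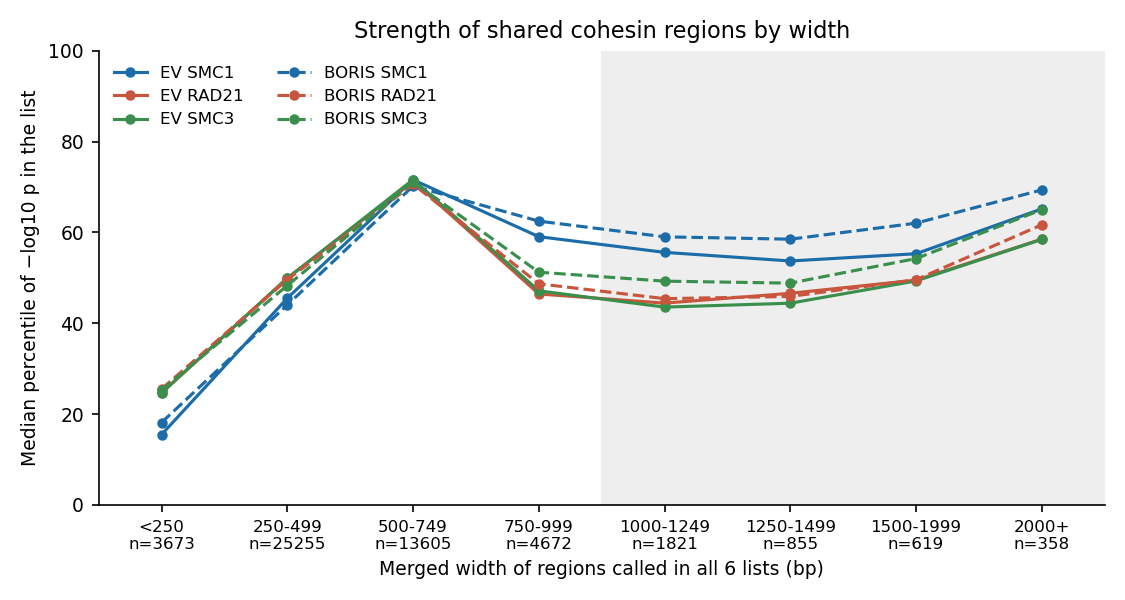
Median percentile of −log10 p in each list (0 to 100) for regions called in all 6 lists, in 8 classes of merged width with the number of regions under each; the shaded classes are the broad regions, solid lines EV and dashed lines BORIS cells. All lists peak at 70.2 to 71.6 between 500 and 750 bp, and the SMC1 lines lie above the others from 750 bp up.

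The 3 antibodies ranked the broad regions differently. In EV cells 63.6% of the broad regions had a higher percentile with SMC1 than with RAD21, and in BORIS cells 70.3%. Among narrower regions these shares were 49.5% and 49.4%. SMC1 was above SMC3 in 66.8% of the broad regions in EV and 64.8% in BORIS cells, against 45.7% and 46.9% of the narrower ones. The median gap between SMC1 and RAD21 was 3.22 points in EV and 6.17 points in BORIS cells. SMC3 was above RAD21 in 48.2% of the broad regions in EV and 58.6% in BORIS cells, so this pair changed direction between the lines. SMC1 was above RAD21, and separately above SMC3, in most broad regions of both lines. This was not particular to broad regions. Narrower regions from 750 up to 1000 bp had median percentiles of 59.1 (SMC1), 46.4 (RAD21) and 47.1 (SMC3) in EV cells. In BORIS cells these were 62.5, 48.7 and 51.2. Each of these values rests on 1 library per antibody and line.

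In EV cells broad regions had lower deposited folds than narrower ones but more fragments at their summits. The median fold of the broad regions was 12.2 (SMC1), 10.3 (RAD21) and 10.8 (SMC3) in EV cells, against 12.5, 13.5 and 14.03 in narrower regions. The pileup at the summit, the number of fragments over it, was nevertheless higher in the broad regions. Its median was 48 (SMC1), 40 (RAD21) and 45 (SMC3), against 36, 36 and 40 in narrower regions. The local background rate was higher too, with medians of 2.98, 2.71 and 3.08 fragments against 1.87, 1.72 and 1.95. Narrower regions from 750 up to 1000 bp had median folds of 13.7, 10.8 and 11.5 and median backgrounds of 2.55, 2.33 and 2.64 in EV cells. Their RAD21 and SMC3 folds and all 3 backgrounds were thus nearer to those of the broad regions. In BORIS cells the median folds were 10.0, 8.55 and 10.1 in broad and 9.71, 10.46 and 11.6 in narrower regions, so SMC1 was higher in the broad ones there. The median pileups were 41, 33 and 42 in broad and 29, 28 and 33 in narrower regions. In the same cells the medians of the background were 3.11, 2.69 and 3.14 in broad and 1.99, 1.83 and 2.03 in narrower regions. Which control or window the caller used for this background was not stated.

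The next 3 regions were picked for the highest lowest percentile over the 6 lists. At chr15:101818335-101819472 the folds were 53.6 (SMC1), 58.4 (RAD21) and 53.8 (SMC3) in EV cells, and 50.5, 55.3 and 55.6 in BORIS cells. Its lowest percentile in any list was 99.9, and its 6 summits lay within 13 bp. At chr2:167104205-167105225 the folds were 72.1, 79.0 and 77.1 in EV cells and 57.8, 75.2 and 71.0 in BORIS cells. At chr2:167363055-167364934, which is 1880 bp wide, they were 56.8, 62.1 and 58.0 and then 46.0, 53.0 and 56.2. In each of the 3 regions there was 1 summit cluster of all lists, and the folds of the 2 lines overlapped at the first and second but not at the third. The third was also called for Snf2h in both CH12 lines and the others in neither.

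The widest regions were of another make. The widest, chr9:3013646-3027317, was called over 13203 to 13672 bp in each of the 6 lists. Its folds lay between 2.26 and 2.68 and its background between 90.4 and 103 fragments, far above the medians just given. The pileups were 232 (SMC1), 234 (RAD21) and 234 (SMC3) in EV cells and 242, 246 and 246 in BORIS cells. It held 26 deposited regions and no summit cluster of all lists, and both Snf2h lists had a region in it. Such high backgrounds were rare: 13 broad regions (0.356%) had at least 10 fragments of background in all 6 lists, as did 0.169% of the narrower regions.

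The next widest lay close together on chromosome 19. The region chr19:5835044-5846167 spanned 11124 bp and held 67 deposited regions. SMC3 calls covered 10922 bp of it in 2 regions in EV cells and 11090 bp in 1 region in BORIS cells. RAD21 calls covered 4223 bp and 4910 bp, each in 17 regions. The folds were moderate, from 8.97 (RAD21 in BORIS cells) to 15.7 (SMC3 in EV cells). At chr19:5792029-5798258, of 6230 bp, the 6 strongest summits met within 37 bp, with RAD21 folds of 30.3 in EV and 18.5 in BORIS cells. On both, SMC3 was the antibody with the longest calls in each line.

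BORIS cells had less length called over the broad regions with SMC1 and RAD21 and about as much with SMC3. Over the broad regions, SMC1 calls summed to 4.19 Mb in EV and 3.81 Mb in BORIS cells, a ratio of 0.909. RAD21 calls summed to 3.42 and 3.12 Mb, a ratio of 0.912. SMC3 calls summed to 4.07 and 4.14 Mb, a ratio of 1.02. In narrower regions the ratios were 0.931, 0.964 and 1.03. The calls were wider in BORIS cells in 33.7% of the broad regions with SMC1, 38.8% with RAD21 and 52.5% with SMC3, and in 39.9%, 45.2% and 53.6% of the narrower ones.

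Rank moved otherwise than length. The median percentile shift, BORIS minus EV, was 1.43 points (SMC1), -0.13 (RAD21) and 1.73 (SMC3) in the broad regions. In narrower regions it was -0.39, -0.03 and -0.24. SMC1 and SMC3 therefore ranked somewhat higher in BORIS cells while SMC1 called less length there. The quartiles of the shift were -4.34 and 9.57 for SMC1, so the spread over regions was wider than the median shift. The median fold was lower in BORIS cells with each antibody, at 10.0 against 12.2 for SMC1, 8.55 against 10.3 for RAD21 and 10.1 against 10.8 for SMC3, as it also was in the narrower regions.

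Few broad regions moved the same way with all 3 antibodies. Length called was at least 25% higher in BORIS cells in 105 broad regions (2.87%, interval 2.36 to 3.47), where 3.32% of all regions called in all lists met this rule. It was at least 20% lower in 252 (6.90%, 6.10 to 7.77), against 4.55%. The percentile was at least 10 points higher in 207 (5.67%, 4.94 to 6.47), against 6.98%. It was at least 10 points lower in 94 (2.57%, 2.08 to 3.14), against 6.33%. The share with longer calls was thus near the background and that with shorter calls above it, both unequally between chromosomes. The shares of higher and of lower rank were both below the background. Narrower regions from 750 up to 1000 bp were similar, with 6.61% of shorter calls and 2.98% of lower rank. In the 358 regions of at least 2000 bp the share with shorter calls was 4.75%, near the background. Of the 252 with shorter calls, 44 were among the 94 of lower rank. Of the 105 with longer calls, 31 were among the 207 of higher rank.

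The largest shifts illustrate both directions. At chr4:81707886-81709096 the SMC1 percentile was 44.1 in EV and 84.8 in BORIS cells, for RAD21 21.05 and 66.2, and for SMC3 9.08 and 62.9. Its pileups were 43, 26 and 23 in EV cells and 71, 56 and 56 in BORIS cells, in the same order of antibodies. The SMC1 calls there covered 599 bp in EV and 1155 bp in BORIS cells. A second rise, at chr4:88686215-88687286, had pileups of 33, 22 and 24 in EV and 57, 39 and 49 in BORIS cells. Both regions were chosen for a large rise in percentile with every antibody. Higher values in BORIS cells with each antibody therefore follow from the choice and are no separate test. The antibodies are not replicates of a line, and each value rests on 1 library.

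Falls were found on other chromosomes. At chr14:46791786-46792871 the pileups were 38 (SMC1), 26 (RAD21) and 30 (SMC3) in EV cells and 14, 12 and 13 in BORIS cells. The RAD21 calls there covered 991 bp in EV and 233 bp in BORIS cells. At chr16:30069576-30071274 the folds were 14.3, 13.1 and 11.1 in EV cells and 6.72, 5.94 and 6.14 in BORIS cells. The folds were lower in BORIS cells with each antibody at both regions. These regions were chosen for a large fall in percentile with every antibody, so this direction too follows from the choice.

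The shifts were unequal between chromosomes. On chromosome 4 the broad regions had median shifts of 8.33 points (SMC1), 3.64 (RAD21) and 6.26 (SMC3), the highest of any chromosome with each antibody. On chromosome 14 they were -9.81, -10.1 and -6.98, the lowest with each. Narrower regions had their extremes on the same chromosomes, with 4.65, 4.36 and 4.22 on chromosome 4 and -11.6, -8.06 and -9.86 on chromosome 14. Shorter calls in BORIS cells were found in 34 of 82 broad regions on chromosome 14 (41.5%), where 17.4% of all regions called in all lists had them, and in 43 of 158 on chromosome 8 (27.2%, against 11.5%). Longer calls were found in 42 of 293 on chromosome 4 (14.3%, against 9.14%). Chromosomes 7, 8, 12 and 14, singled out after their values were seen, held 135 of the 252 broad regions with shorter calls. These were 23.3% of the 580 broad regions there, against 10.6% of all regions called in all lists, while a lower rank was found in 9.48% against 13.6%. On the other 15 chromosomes 117 of 3073 broad regions had shorter calls (3.81%, 3.16 to 4.55), where the share over all was 3.27%. Longer ones were found in 103 (3.35%, 2.74 to 4.05), where it was 3.76%. Of these, 56 lay on chromosomes 4 and 5, likewise singled out (10.7%, 8.19 to 13.7, against 7.29%). The remaining 13 chromosomes had longer calls in 47 of 2550 broad regions (1.84%, 1.36 to 2.44), below the 3.03% over all. Shorter calls were found there in 112 (4.39%, 3.63 to 5.26), against 3.62%. The BORIS cells are 1 clone, so BORIS expression and other properties of the clone cannot be told apart in these differences.

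**Figure D5:**
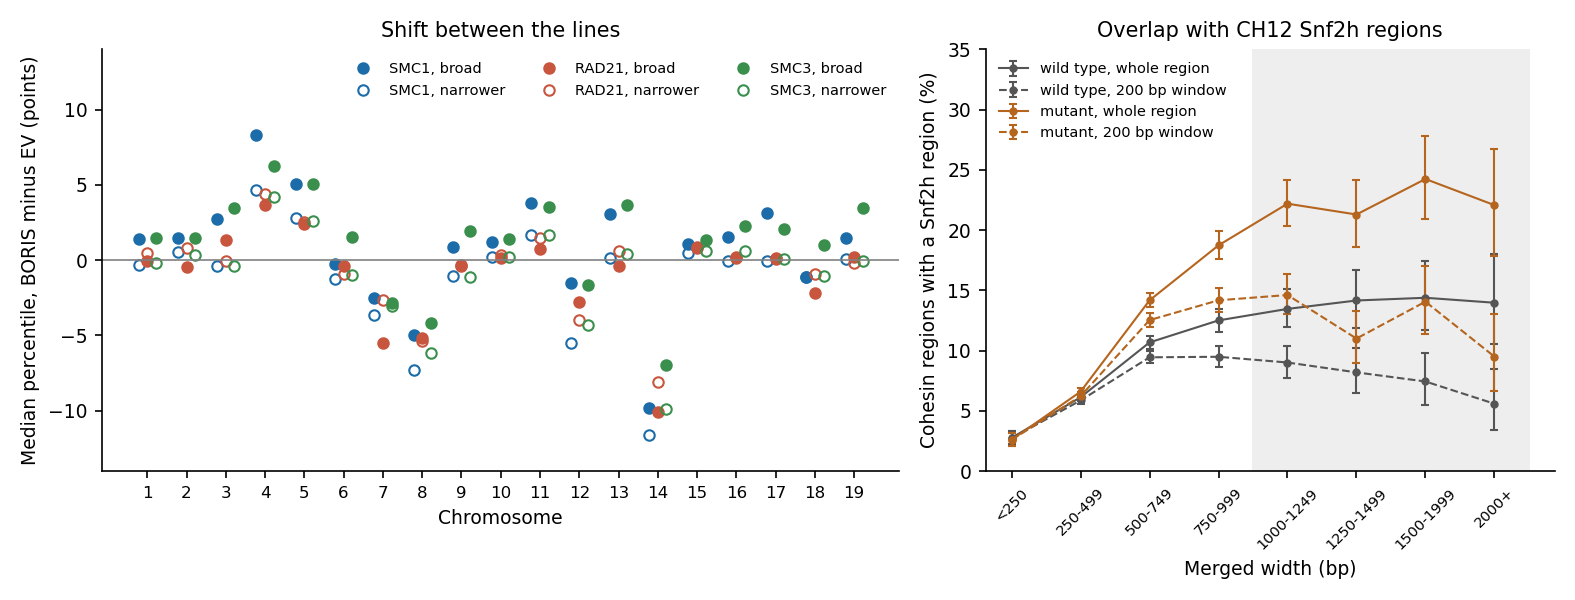
Left, median percentile shift from EV to BORIS cells (points) by chromosome for broad regions (filled) and narrower regions (open), with 1 library per antibody and line; right, share of cohesin regions (%) with a CH12 Snf2h region by merged width in bp, with exact 95% intervals as bars and the broad classes shaded. The shifts are highest on chromosome 4 and lowest on chromosome 14, and with the whole region counted 22.3% of broad regions meet a mutant Snf2h region.

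Snf2h, mapped in another cell type and not used to choose the regions, met a larger share of the broad than of the narrower regions as a whole. A wild-type CH12 Snf2h region shared at least 1 bp with 505 broad regions (13.8%, interval 12.7 to 15.0), where 8.23% of all regions called in all lists had one and 7.80% (7.56 to 8.05) of the narrower ones. A mutant region did so in 815 (22.3%, 20.97 to 23.7), where the share over all was 10.6% and in narrower regions 9.66% (9.40 to 9.93). Both lists met 379 broad regions (10.4%, against 4.16% of the narrower ones) and the mutant list alone met 436 (11.9%, against 5.50%). The wild-type list alone met 126 (3.45%), close to its share of 3.64% in narrower regions. A wider region has more room for an overlap. In a window of 200 bp at the strongest summit the wild-type share was 8.21% (7.34 to 9.15) of broad and 7.01% (6.78 to 7.24) of narrower regions, with 7.09% over all. The mutant share was 13.2% (12.1 to 14.3) and 8.54% (8.29 to 8.79), with 8.87% over all. The widest narrower regions did not show this gap. From 750 up to 1000 bp the window share was 9.48% for the wild-type and 14.2% for the mutant list, above the shares over all broad regions.

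Broad regions in both Snf2h lists ranked higher than those in neither. The 379 that met both Snf2h lists had a median RAD21 percentile of 72.7 in EV cells, and the 2712 that met neither had 43.7. The median widths were similar, at 1263 and 1250 bp. In the window of 200 bp, the mutant share was 24.4% (21.8 to 27.2) of broad and 14.5% (13.8 to 15.1) of narrower regions among those whose median percentile over the lists was at least 75. Among those under 25 it was 4.81% (3.29 to 6.76) of broad and 5.88% (5.46 to 6.33) of narrower regions. The wild-type share was 17.6% (15.3 to 20.02) of broad and 12.6% (12.01 to 13.3) of narrower regions at 75 or above. Under 25 the order was the other way, with 1.55% (0.747 to 2.84) of broad and 3.35% (3.03 to 3.70) of narrower regions. The mutant Snf2h list was longer than the wild-type one, with 23873 against 17306 regions. Taking 17306 regions from each, the whole-region share was 16.2% for the mutant and 13.8% for the wild-type list in broad regions, and 6.69% and 7.80% in narrower ones.

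Broad regions lay closer to other cohesin regions than narrower ones did. The nearest other region called in all lists was a median of 4295 bp away from a broad region and 7592 bp away from a narrower one. Within 10 kb there was such a neighbour for 69.0% of the broad and 57.5% of the narrower regions. The nearest broad region was a median of 73132 bp from another, and 670 broad regions (18.3%) had another within 10 kb. These formed 288 runs, of which 57 had at least 3 broad regions. The longest run, chr19:5786158-5846167, held 11 broad regions over 60.01 kb, which took up 37.4 kb of it and included the second and the third widest. A run of 8 at chr9:3000004-3038308 included the widest.

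Every chromosome from 1 to 19 held broad regions, from 82 on chromosome 14 to 293 on chromosome 4. Their share of the regions called in all lists was highest on chromosome 15, at 9.27% (8.21 to 10.4), and lowest on chromosome 6, at 5.38% (4.56 to 6.30). Strength on either side of the width threshold differed from list to list. The 113 broad regions of 1000 to 1009 bp had median percentiles of 38.8 to 57.0 in the 6 lists, and the 108 narrower regions of 990 to 999 bp had 39.7 to 57.7. The widest gap was that of RAD21 in BORIS cells, with 38.8 inside and 44.6 outside. Just inside, chr4:119902498-119903497, chr9:106320109-106321108 and chr9:30744105-30745104 had lowest percentiles of 95.9, 70.3 and 67.0. Just outside, chr6:72114318-72115316, chr3:102113637-102114635 and chr10:68996215-68997213, of 999 bp, had 91.6, 51.5 and 26.0.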

How the data were processed

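Peak lists of 8 ChIP-seq samples were used. Their 10 columns were those of the narrowPeak layout, with no header line. The submitters' processing notes name MACS2, Bowtie2, Bowtie, SAMtools and deepTools and the builds mm9 and hg19, with no role. The control and thresholds were not given in the sources used here. For each region the authors deposited a score (the −log10 q times 10 as an integer), a fold (ratio of summit pileup to local background), a −log10 p and a −log10 q of the summit, and the summit position.

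Regions were merged and measured in Python 3.11.15 with numpy 2.4.6, pandas 2.3.3 and scipy 1.17.1, and the functions were tested on simulated lists. For a list with several regions in a merged region, the strongest by −log10 p gave fold, pileup and summit. Pileup and background were solved from fold and −log10 p as a Poisson tail, with the fold taken as pileup plus 1 over background plus 1. The recovered pileup was an integer at every summit, with a tolerance of 0.001 on the −log10 p scale, where at most 0.845% would by chance. Intervals are exact (Clopper-Pearson, 95%). Groups came from the sample labels. Regions named were the 3 widest, the 3 with the highest lowest percentile, the 3 with most summit clusters (ties by width), the 2 with the largest shift each way (by the smallest of the 3 antibodies, all of one sign), and 3 on either side of the width threshold, none on chromosome 18. The regions, measures and alternatives were chosen with earlier results of these data known. The alternatives were other widths, summit gaps, thresholds and list lengths, and lists left out. A planned search for CTCF motifs and promoters was not run, as a genome matching these coordinates was not used here.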

Additional observations from a re-analysis of the deposited data

Results flagged for a closer look

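Chromosome X lay outside the rule. By the same merging and width, 30 of its 1068 regions called in all 6 lists were broad (2.81%, exact 95% interval 1.90 to 3.99), against 7.18% on chromosomes 1 to 19.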

How the results depend on the processing

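The rule sets the number of broad regions. It was 8325 (16.4% of the regions called in all lists) at 750 bp, 977 (1.92%) at 1500 bp and 358 (0.704%) at 2000 bp, 2403 (4.72%) with a single region of 1000 bp in some list and 224 (0.440%) with one in every list. At a −log10 q threshold of 10 it was 2224 (7.44%), and with equal lists 3226 (7.13%). EV lists alone gave 2554 (3.94%) and BORIS lists alone 2288 (3.61%). Without SMC1, RAD21 or SMC3 it was 2672 of 54915 (4.87%), 3469 of 60749 (5.71%) and 2526 of 53003 (4.77%), so the number of regions in all lists used also grew. The median percentile over the 6 lists was 50.2, but 63.3 from 2000 bp and 45.4 at the stricter −log10 q. At the stricter −log10 q regions were ranked anew among the 29900 then called in all lists, so this value is on another scale. The cause of these differences was not tested. With summit gaps of 100 bp, 148 broad regions had several clusters and 1135 none, and with 300 bp 354 had none.

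For length called, the higher and lower shares were 1.12% and 2.30% at 1.5 times. They were 7.06% and 10.0% without SMC1, 4.93% and 9.33% without RAD21, and 4.30% and 14.2% without SMC3, where fewer antibodies must concur. Without chromosomes 4 and 14 the higher share was 1.92%. For the percentile, they were 12.9% and 7.23% at 5 points and 1.31% and 0.219% at 20. They were 8.49% and 4.95% without SMC1, 12.3% and 4.90% without RAD21, and 8.71% and 5.53% without SMC3. Lower outnumbered higher for length, and higher outnumbered lower for the percentile, under each of these settings.

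When Snf2h regions had to reach a −log10 q of 10, 2.03% of broad and 0.860% of narrower regions met a wild-type one, and 4.27% and 1.53% a mutant one. In the 200 bp window the shares were 8.21% and 7.01% for wild type and 13.2% and 8.54% for the mutant. With equal Snf2h lists the mutant shares were 16.2% and 6.69%, and in the window 9.47% and 5.98%. Settings for the percentile of broad regions and the window with equal lists were chosen after seeing the data. Depth was not stated, so a call missing from a list does not show absence of cohesin.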
